A study of Mus musculus with 12 samples.

Results

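Aminoacyl-tRNA synthetases are the enzymes that load each amino acid onto its transfer RNA. The genes described here were all rows of the deposited count table whose symbol is one of 36 synthetase symbols. All 36 were among the 19434 genes counted, and all 36 passed the filter on low counts that left 11062 genes tested. Of these, 20 encode cytosolic enzymes and 16, whose symbols end in 2, encode mitochondrial enzymes.

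RNA came from CD4+ T cells (helper T lymphocytes), enriched on beads and sorted from the lungs of male and female C57BL/6NJ mice. Juvenile mice aspirated Escherichia coli (2800000 colony-forming units) or phosphate-buffered saline (PBS) on day 15 of life, and neonatal mice aspirated the same on day 5. Lungs were taken 48 h later. The juvenile E. coli, juvenile PBS, neonatal E. coli and neonatal PBS groups held 3 libraries each, and a library was a pool of 2 juvenile or 3 neonatal mice, so n counts pools of both sexes. No genotype other than the strain is labelled, and no gate is labelled beyond the name of the cells.

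A synthetase joins its amino acid to ATP and then passes it to the matching tRNA, and the charged tRNA is carried to the ribosome by elongation factors. Class I and class II enzymes have unrelated catalytic folds. In the cytosol of animal cells, 8 of the genes listed here (Dars, Eprs, Iars, Kars, Lars, Mars, Qars and Rars) encode subunits of the multisynthetase complex, which is held together by the scaffold proteins Aimp1, Aimp2 and Eef1e1. Eprs charges both glutamate and proline, Farsa and Farsb are the subunits of 1 phenylalanine enzyme, and Gars and Kars each encode a cytosolic and a mitochondrial form. Uncharged tRNA activates the kinase Eif2ak4 (GCN2), and the transcription factor ATF4 made in that integrated stress response is known to induce many cytosolic synthetase genes. T cells that are activated make much more protein, and MYC is known to drive part of that program. Wars, the tryptophan enzyme, is known as a gene induced by interferon-gamma.

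Each library held 6035445 to 8129983 counts, and 3 counts, the limit that a count of 0 allows, correspond to 0.374 to 0.494 CPM (counts scaled to library totals corrected by the TMM method). Limits from counts cover counting error only. Intervals of fold changes given below are built from the SE of the fit, which includes the spread between pools. The 36 genes took 0.313% to 0.638% of the counts. Listed marker genes of T cells, Cd4 among them, were abundant, with 9 of 10 found. Their summed level was 4227 to 4604 CPM in juvenile E. coli and 5114 to 5586 CPM in juvenile PBS libraries. In neonatal E. coli and neonatal PBS libraries that sum was 4474 to 4813 and 4418 to 5023 CPM. Genes of immature T cells stood apart in neonatal PBS library 1 (summed level 1244 CPM) and juvenile PBS library 2 (994 CPM), against 585 to 775 CPM in the other libraries. Each count of called synthetases was also made without those libraries. Themis alone held 393 to 668 CPM of that sum. Rag1 had 102 to 145 CPM in juvenile E. coli and 0.255 to 42.8 CPM in neonatal E. coli libraries. Between those groups, juvenile minus neonatal, 6 of 8 tested genes of the list had positive and 2 negative fold changes (median log2 2.34). Leaving out the PBS libraries named does not address this difference, and its part in the synthetase values was not tested.

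The cytosolic enzymes varied little between groups in their summed level. The summed level of the 20 genes was 1574 ± 126 CPM in juvenile E. coli libraries and 1513 ± 140 CPM in juvenile PBS libraries (SD, n = 3 each). It was 1539 ± 17.8 CPM in neonatal E. coli libraries and 1559 ± 66.2 CPM in neonatal PBS libraries, so that the groups lay within the spread of the juvenile libraries. Per kilobase of exon, taken as the union of all annotated isoforms, the median level of the 20 genes was 14.5, 13.4, 14.5 and 14.3 CPM per kb in juvenile E. coli, juvenile PBS, neonatal E. coli and neonatal PBS libraries. The asparagine enzyme Nars was highest in all 4 groups, at 42.4, 41.4, 41.0 and 41.4 CPM per kb in the same order. The cysteine enzyme Cars and the phenylalanine subunit Farsa were lowest, at 2.66 and 2.02 CPM per kb in juvenile E. coli and 2.08 and 2.14 CPM per kb in juvenile PBS libraries. Its partner subunit Farsb stood at 26.7 and 33.5 CPM per kb in those groups, so the genes of this paired enzyme differed widely in level per length.

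Mitochondrial enzymes were lower, with a median of 2.12, 2.58, 2.35 and 2.41 CPM per kb in the 4 groups in that order. Lars2, the mitochondrial leucine enzyme, stood alone at 135 CPM per kb in juvenile E. coli, 285 in juvenile PBS, 342 in neonatal E. coli and 342 in neonatal PBS libraries. The next mitochondrial gene, the isoleucine enzyme Iars2, reached 12.1 to 13.8 CPM per kb. Lars2 made up 82.1% to 93.7% of the mitochondrial sum, so sums of that set are given without it. A stretch of 72 bases in a 3894-base Lars2 transcript (bases 3278 to 3349) matches the antisense RNA Gm15564 at 98.6% identity, and 50 bases match AA474408. Lars2 counts in mouse RNA-seq libraries are known to include reads of ribosomal RNA origin, and their part in the values below was not tested. Of the 36 genes, 16 share at least 50 bases at 95% identity or more with a transcript of another gene. These include Hars and Hars2, which overlap head to head by 195 bases, and Iars with its processed pseudogene Gm4849 (96.0% identity over 1656 bases). Aars is also among them, with 1326 bases shared with Exosc6 on the same strand at 100% identity. Iars2 shares 2034 bases with Rab3gap2 and Nars2 284 bases with C230038L03Rik, on opposite strands at 100% identity. Reads from a stretch identical in 2 genes on the same strand cannot be assigned to either, and without strand neither can reads from genes that overlap on opposite strands. The values of these 16 genes are uncertain to that extent.

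**Figure D1:**
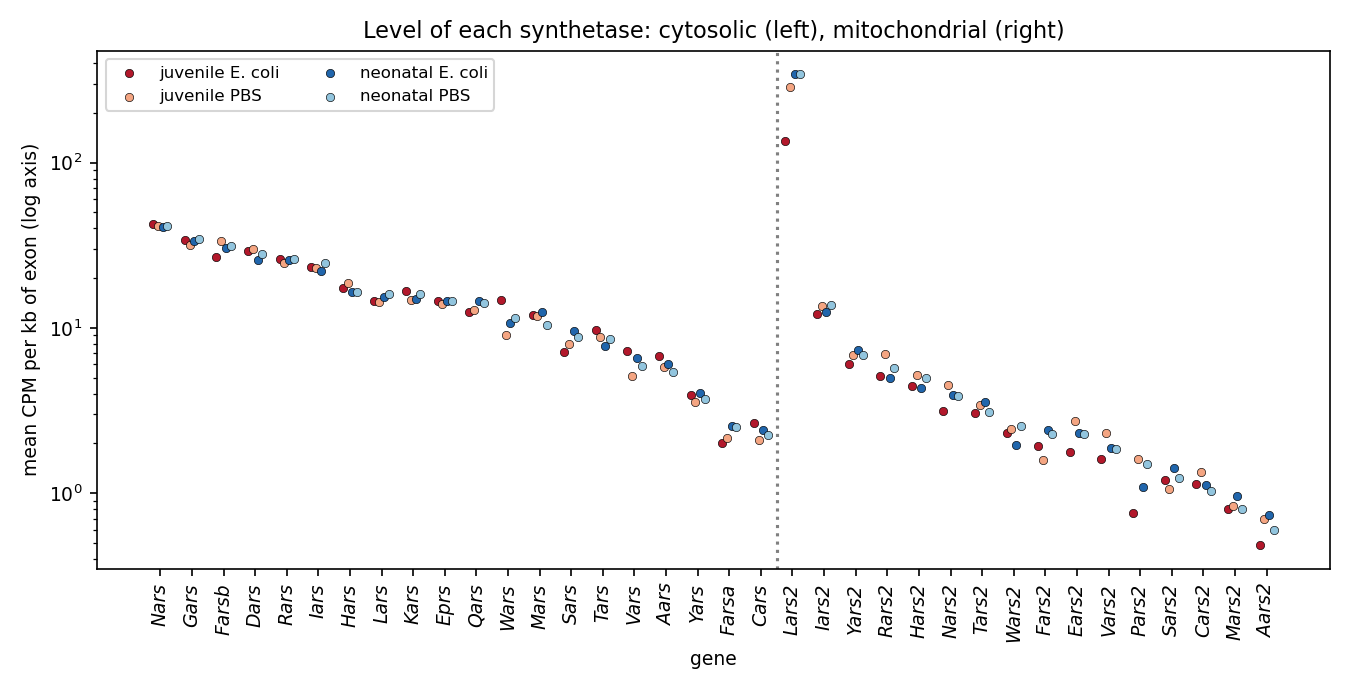
Mean level of each of the 36 synthetase genes in CPM per kb of exon (log axis) in the 4 groups, cytosolic genes left of the dotted line and mitochondrial genes right of it, each ordered by level in neonatal PBS libraries. Lars2 has the widest range between groups, 2.53-fold from its highest to its lowest mean, followed by Pars2 (2.12-fold) and Wars (1.61-fold).

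In juvenile mice, E. coli was set against PBS to ask how the infection changed lung CD4+ T cells. Wars and the valine enzyme Vars rose among the 20 cytosolic genes, 0 fell, and 18 did not pass the test of edgeR's quasi-likelihood fit (adjusted p of at most 0.05, Benjamini-Hochberg over all 11062 genes). In the same comparison 15.4% of all tested genes rose and 9.42% fell, beside 2 of 20 and 0 of 20 here. The median log2 fold change of the cytosolic genes was 0.05, against -0.01 over all tested genes. Of the 20 genes, 14 had positive and 6 negative fold changes. Wars, Vars and Cars were higher in every juvenile E. coli library than in any juvenile PBS library, and Farsb was lower, against 20.6% and 16.3% of all tested genes.

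Wars (chromosome 12, 108860030 to 108894174, minus strand, GRCm38) had 56.3, 53.7 and 41.3 CPM in juvenile E. coli libraries and 31.0, 26.5 and 36.5 CPM in juvenile PBS libraries. The groups did not overlap, and the log2 fold change was 0.69 ± 0.14 (SE, n = 3 each, edgeR adjusted p = 0.00255), or 1.61-fold. The gene was called under all 22 alternative settings. Vars (chromosome 17, 35000987 to 35016322, plus strand) had 45.8, 39.2 and 36.2 CPM in juvenile E. coli libraries and 25.9, 30.5 and 29.3 CPM in juvenile PBS libraries. These groups did not overlap either, with a log2 fold change of 0.50 ± 0.13 (edgeR adjusted p = 0.0114). Without juvenile E. coli library 1 or juvenile PBS library 1 the Vars call was lost (edgeR adjusted p = 0.0839 and 0.0551).

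The other cytosolic genes lay in a narrow band, between -0.32 for Farsb and 0.36 for Cars on the log2 scale. All 20 of the 95% intervals lay inside a 2-fold change in either direction, and 14 lay inside 0.5 on the log2 scale. The alanine enzyme Aars had 67.0, 62.3 and 58.1 CPM in juvenile E. coli libraries and 52.7, 61.6 and 45.9 CPM in juvenile PBS libraries, which overlapped. Its log2 fold change was 0.23 ± 0.13 (edgeR adjusted p = 0.224). Eprs, the most counted cytosolic gene, had 281, 256 and 255 CPM in juvenile E. coli libraries and 247, 272 and 233 CPM in juvenile PBS libraries, a difference of 0.08 ± 0.08 (log2 ± SE, edgeR adjusted p = 0.542) with an interval from -0.10 to 0.25. The glycine enzyme Gars had 119, 105 and 92.5 CPM in juvenile E. coli libraries and 82.3, 119 and 93.7 CPM in juvenile PBS libraries, with a log2 fold change of 0.10 ± 0.13 (edgeR adjusted p = 0.615). None of the 8 complex subunits was called in the edgeR test reported (0 also at an unadjusted p under 0.05), and their median was 0.03. Kars was called by edgeR when juvenile PBS library 2 was left out, alone or together with neonatal PBS library 1. The fit without both libraries called 3 cytosolic and 3 mitochondrial genes, against 2 and 3 in the test reported. The alternative test limma voom called Kars and Lars among the subunits.

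**Figure D2:**
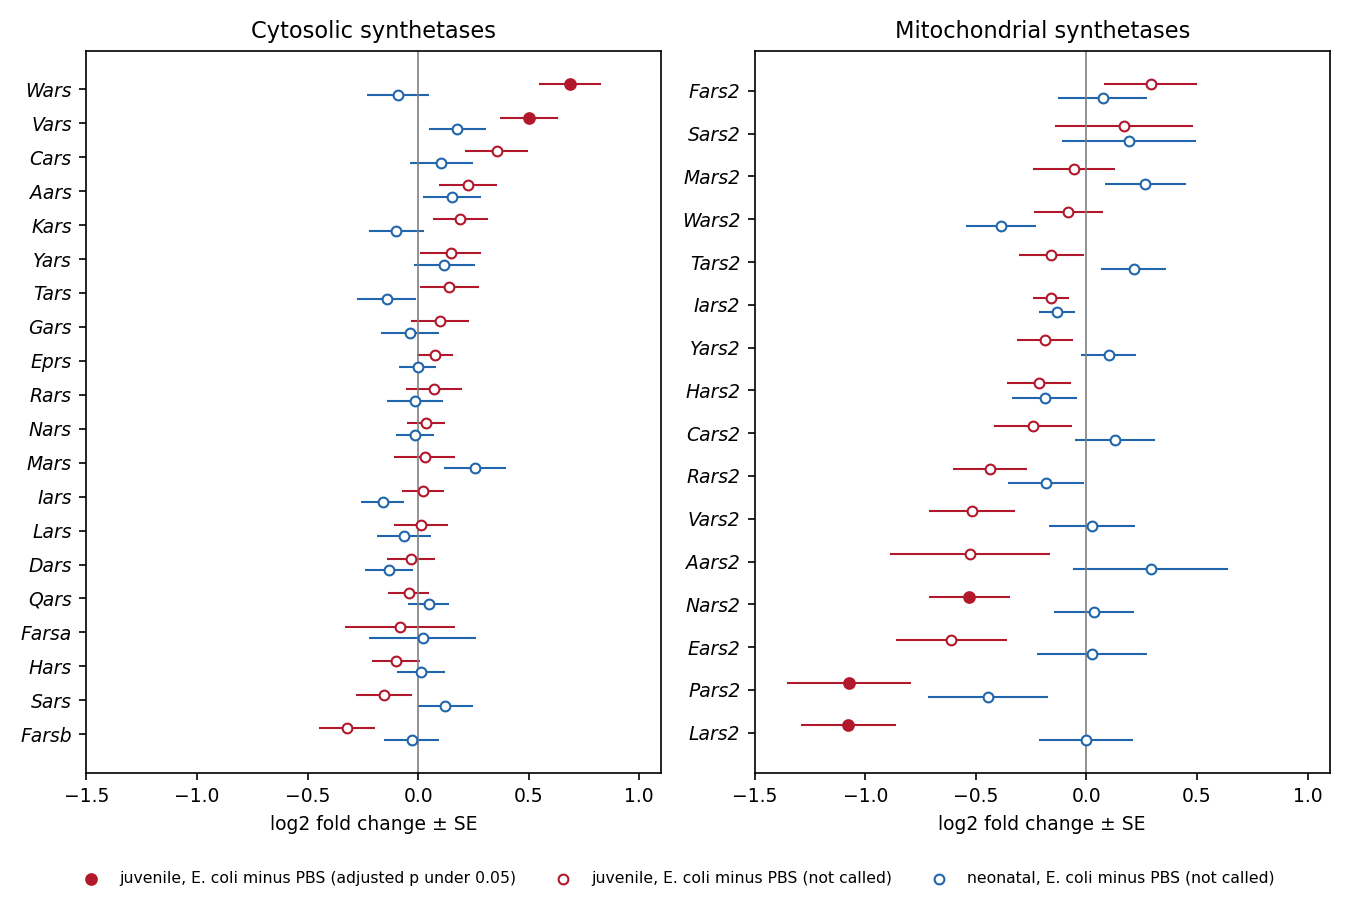
Log2 fold change ± SE of E. coli minus PBS for each cytosolic (left) and mitochondrial (right) synthetase, in juvenile (red) and neonatal (blue) mice, from 3 libraries a group. Filled points passed an adjusted p of 0.05 and open points did not. Wars (0.69) and Vars (0.50) are the filled points right of 0, and Lars2 (-1.08), Pars2 (-1.07) and Nars2 (-0.53) those left of 0, all in juvenile mice.

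Among the mitochondrial enzymes the juvenile calls were in the other direction. Of the 16 genes, 3 fell (Lars2, the proline enzyme Pars2 and the asparagine enzyme Nars2) and 0 rose in edgeR, and 6 of 16 had an unadjusted p under 0.05, as did 4089 of all 11062 tested genes. A share of 3 in 16 stands beside 9.42% of all tested genes that fell. Fold changes were negative for 14 of the 16 genes, positive only for Fars2 (0.29) and Sars2 (0.17), and their median was -0.23. Lars2, Pars2, Aars2, Rars2 and Vars2 were lower in every juvenile E. coli library than in any juvenile PBS library, against 16.3% of all tested genes, and 0 of the 16 were higher, against 20.6%. The summed level without Lars2 was 264 to 282 CPM in juvenile E. coli libraries and 303 to 328 CPM in juvenile PBS libraries, which did not overlap.

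Lars2 (chromosome 9, 123366927 to 123462666, plus strand) had 1227, 1331 and 1934 CPM in juvenile E. coli libraries and 2864, 2123 and 4491 CPM in juvenile PBS libraries. Every juvenile E. coli value was below every juvenile PBS value, and juvenile PBS library 3 had the highest of the 12. The log2 fold change was -1.08 ± 0.22 (SE, n = 3 each, edgeR adjusted p = 0.00204), and the call held under all 22 alternatives. Pars2 (chromosome 4, 106651069 to 106655282, plus strand) had 2.01, 2.35 and 2.67 CPM in juvenile E. coli libraries and 4.32, 6.10 and 4.46 CPM in juvenile PBS libraries. Its groups did not overlap, with a log2 fold change of -1.07 ± 0.28 (edgeR adjusted p = 0.0121). The counts behind these levels were small, at 16, 17 and 21 in juvenile E. coli and 30, 37 and 28 in juvenile PBS libraries, and the call was lost without juvenile E. coli library 1 (edgeR adjusted p = 0.0508).

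Nars2 (chromosome 7, 96951505 to 97064758, plus strand) had 20.4, 16.7 and 28.3 CPM in juvenile E. coli libraries and 37.0, 27.9 and 29.7 CPM in juvenile PBS libraries. The groups overlapped through juvenile E. coli library 3, and the log2 fold change was -0.53 ± 0.18 (edgeR adjusted p = 0.0451). That call was lost when any of 5 single libraries was left out, namely juvenile E. coli library 1 or 2, juvenile PBS library 1 or 3 or neonatal E. coli library 3. It was also lost when the fit held only the groups compared (adjusted p = 0.0992). Vars2 and Rars2 did not pass, at -0.52 ± 0.19 and -0.44 ± 0.17 (log2 ± SE, edgeR adjusted p = 0.0649 and 0.0711). By catalytic class, 2 class I genes rose and 1 fell of 19, and 0 class II genes rose and 2 fell of 17. Of all tested genes 15.4% rose and 9.42% fell, and a difference between the classes was not tested.

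**Figure D3:**
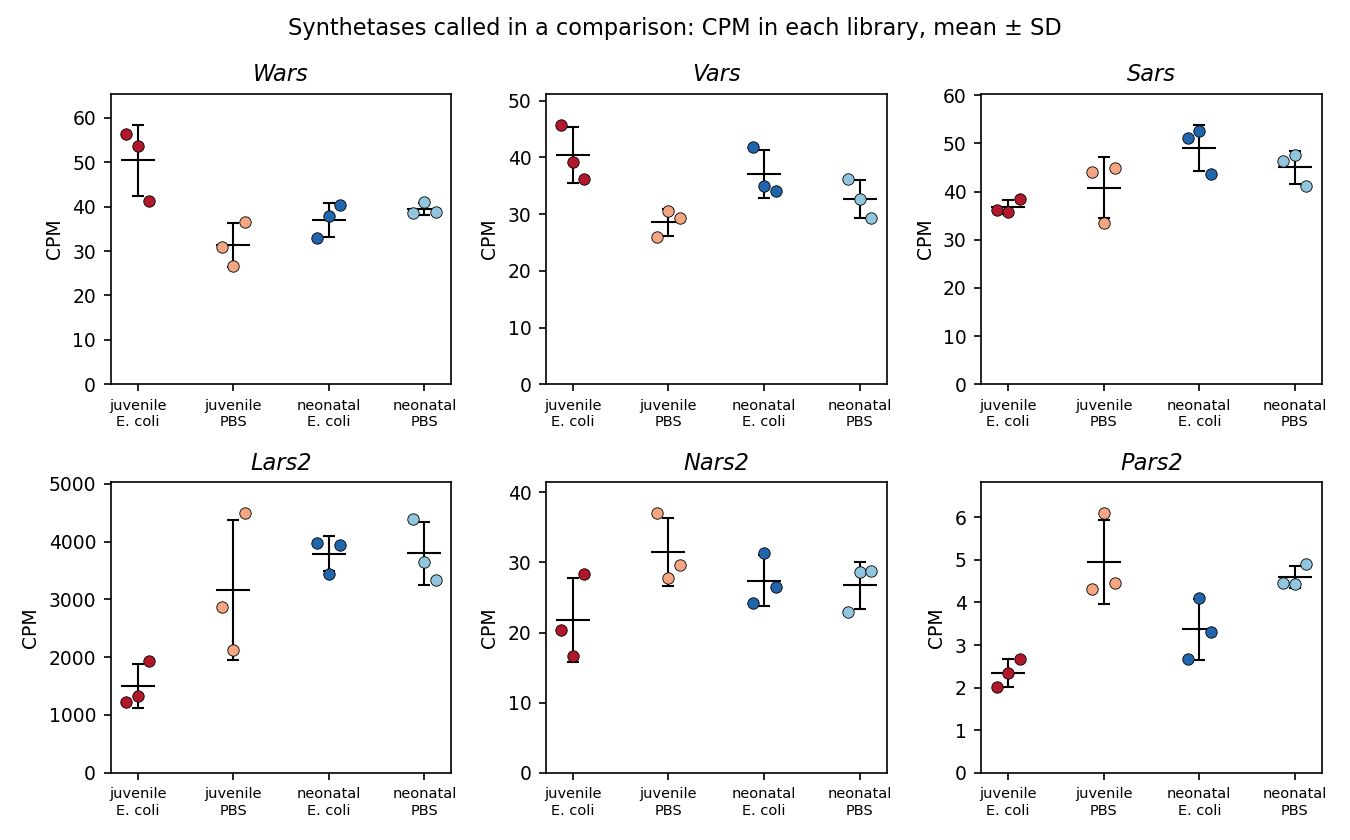
CPM in each of the 12 libraries for the 6 synthetases called in any comparison, with the mean and SD of 3 libraries a group and axes from 0. Wars is highest in juvenile E. coli libraries (41.3 to 56.3 CPM), and Lars2 lowest there (1227 to 1934 CPM).

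In neonatal mice, which took the same bacterial dose at a younger age, E. coli against PBS changed no synthetase past the threshold. In edgeR 0 of 20 cytosolic and 0 of 16 mitochondrial genes were called, where 1.05% of all tested genes rose and 0.145% fell. At an unadjusted p under 0.05 there were 0 cytosolic genes and 1 mitochondrial gene, the tryptophan enzyme Wars2, with a log2 fold change of -0.39 ± 0.16 (edgeR adjusted p = 0.337). DESeq2 and limma voom called 0 of either set. The medians were -0.01 and 0.03, against 0.00 over all tested genes. The cytosolic genes lay between -0.16 for Iars and 0.26 for Mars, and the mitochondrial genes between -0.45 for Pars2 and 0.29 for Aars2. All 20 cytosolic and 14 of 16 mitochondrial 95% intervals lay inside a 2-fold change, so smaller changes are within what these libraries allow.

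Wars had 32.9, 37.9 and 40.3 CPM in neonatal E. coli libraries and 38.7, 41.0 and 38.7 CPM in neonatal PBS libraries, with a log2 fold change of -0.09 ± 0.14 (edgeR adjusted p = 0.877). Lars2 had 3979, 3447 and 3944 CPM in neonatal E. coli libraries and 4396, 3653 and 3335 CPM in neonatal PBS libraries, with a log2 fold change of 0.00 ± 0.21 (edgeR adjusted p = 0.998). Both pairs of groups overlapped. Vars had 41.9, 35.0 and 34.1 CPM in neonatal E. coli libraries and 36.1, 32.6 and 29.4 CPM in neonatal PBS libraries, which overlapped (log2 0.18 ± 0.13, edgeR adjusted p = 0.672). Pars2 had 2.68, 4.11 and 3.31 CPM in neonatal E. coli libraries and 4.46, 4.44 and 4.90 CPM in neonatal PBS libraries (log2 -0.45 ± 0.27, edgeR adjusted p = 0.584). Nars2 had 24.3, 31.4 and 26.5 CPM in neonatal E. coli libraries and 22.9, 28.6 and 28.7 CPM in neonatal PBS libraries, with a log2 fold change of 0.03 ± 0.18 (edgeR adjusted p = 0.972). Every gene called in juvenile mice was thus uncalled in neonates, with overlap between groups for all but Pars2. Aars had 47.2, 56.0 and 64.4 CPM in neonatal E. coli libraries and 47.4, 49.3 and 54.1 CPM in neonatal PBS libraries, with a log2 fold change of 0.15 ± 0.13 (edgeR adjusted p = 0.746). Eprs had 256, 255 and 274 CPM in neonatal E. coli libraries and 262, 247 and 279 CPM in neonatal PBS libraries, with an interval from -0.18 to 0.17 on the log2 scale. Gars had 103, 110.2 and 103 CPM in neonatal E. coli libraries and 117, 95.6 and 111 CPM in neonatal PBS libraries, with a log2 fold change of -0.04 ± 0.13 (edgeR adjusted p = 0.953). These enzymes of alanine, of glutamate with proline and of glycine thus overlapped between exposures at both ages. The 1 cytosolic gene with groups that did not overlap was the tyrosine enzyme Yars, higher in every neonatal E. coli library (0.12 on the log2 scale), against 11.2% of all tested genes. Iars2 and Pars2 were lower in every neonatal E. coli library, against 10.6%.

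The difference between the juvenile and the neonatal response was tested in the same fit. The juvenile minus neonatal difference was 0.78 ± 0.20 for Wars on the log2 scale (SE, edgeR adjusted p = 0.0287) and -1.08 ± 0.30 for Lars2 (adjusted p = 0.0441). EdgeR called no other synthetase, where 5.05% of all tested genes were called with a positive and 1.94% with a negative difference. The median difference was 0.08 for the cytosolic and -0.35 for the mitochondrial genes, against -0.01 over all tested genes. Whether called or not, 14 of 16 mitochondrial differences were negative, as were 5689 of all 11062. Both calls were near the threshold. The Wars call was lost when any of 8 of the 12 libraries was left out (adjusted p up to 0.0997), and the Lars2 call when any of 10 was left out (adjusted p up to 0.121), in DESeq2 (0.0738) and in robust edgeR (0.0919). The difference for Vars was 0.32 ± 0.18 (adjusted p = 0.327), so a difference between the ages in the Vars response was not shown. Differences for Aars, Eprs and Gars were 0.07, 0.08 and 0.14 with SEs of 0.18, 0.12 and 0.18 (edgeR adjusted p = 0.855, 0.746 and 0.714).

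Juvenile and neonatal mice were compared within each exposure. Pools held 2 juvenile or 3 neonatal mice, so age and pool size cannot be told apart. After PBS, 0 cytosolic and 0 mitochondrial genes were called in edgeR between juvenile and neonatal mice, where 1.75% of all tested genes rose and 2.32% fell. DESeq2 also called 0 of either set, and limma voom called 1 cytosolic gene lower and 0 mitochondrial genes. Each set had 1 gene with an unadjusted p under 0.05, Wars at -0.33 ± 0.14 and the mitochondrial phenylalanine enzyme Fars2 at -0.53 ± 0.21 (log2 ± SE, edgeR adjusted p = 0.229 and 0.184). All 20 cytosolic and all 16 mitochondrial intervals lay inside a 2-fold change. Wars was lower in each juvenile PBS library than in any neonatal PBS library (9.82% of all tested genes), and Cars2, the mitochondrial cysteine enzyme, was higher (10.2%). Among the other genes followed throughout, Aars, Eprs, Gars and Lars2 had log2 fold changes of 0.09, -0.07, -0.14 and -0.26 (edgeR adjusted p = 0.793, 0.743, 0.658 and 0.580).

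After E. coli, Wars rose in juvenile relative to neonatal mice, and the cytosolic serine enzyme Sars and Lars2 fell, where 11.3% of all tested genes rose and 6.42% fell. The Wars difference was 0.45 ± 0.14 on the log2 scale (edgeR adjusted p = 0.0365). Sars (chromosome 3, 108424865 to 108445209, minus strand) had 36.1, 35.8 and 38.4 CPM in juvenile E. coli libraries and 51.1, 52.6 and 43.6 CPM in neonatal E. coli libraries. Those groups did not overlap, and the log2 fold change was -0.42 ± 0.12 (edgeR adjusted p = 0.0299). In PBS libraries Sars had 44.1, 33.5 and 45.0 CPM in juvenile and 46.4, 47.6 and 41.2 CPM in neonatal mice, which overlapped. Wars and Sars each lost their call when juvenile E. coli library 1 or 2 or neonatal E. coli library 1 or 2 was left out (adjusted p up to 0.157 and 0.111), and Wars also under upper-quartile scaling (0.0538). Lars2 was -1.34 ± 0.22 (edgeR adjusted p = 0.000465), and its call held under all 22 alternatives. Aars, Eprs and Gars were at 0.16, 0.01 and 0.00 (edgeR adjusted p = 0.427, 0.944 and 0.995). Across the 4 groups, juvenile E. coli libraries held the lowest mean for 9 of the 16 mitochondrial genes and the highest for 0. They held the highest mean for 9 of the 20 cytosolic genes and the lowest for 4. The same counts were not made over all tested genes, so these ranks only describe the members.

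Promoters of the genes were read from RefSeq (GRCm38.p6), from 250 bases before to 50 after the start of a gene, and 27 of the 36 genes matched an entry. Promoters of Cars, Hars, Lars, Nars, Rars, Vars, Wars, Hars2 and Pars2 are not shown. The letters TGATGNAA on either strand, the composite element bound by ATF4 with a C/EBP partner, were found in 5 of 13 cytosolic and 0 of 14 mitochondrial promoters, and in 3.97% of all 32851 promoters of the same length. The cytosolic genes with the letters were Aars, Gars, Iars, Tars and Yars. Asns, asparagine synthetase, is the textbook ATF4 target and is shown beside them. The windows printed run from 130 bases before to 30 after the start, 5′ to 3′ on the strand of the gene, with the element in capitals. They lie, on GRCm38.p6, for Aars at chr8:111033712-111033871 (plus strand), Gars at chr6:55037871-55038030 (plus strand), Iars at chr13:49682000-49682159 (plus strand), Tars at chr15:11399629-11399788 (minus strand), Yars at chr4:129189773-129189932 (plus strand) and Asns at chr6:7693180-7693339 (minus strand).
Aars: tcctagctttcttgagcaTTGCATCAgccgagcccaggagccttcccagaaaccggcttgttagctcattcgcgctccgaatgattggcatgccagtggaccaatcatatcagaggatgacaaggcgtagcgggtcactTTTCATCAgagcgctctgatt
Gars: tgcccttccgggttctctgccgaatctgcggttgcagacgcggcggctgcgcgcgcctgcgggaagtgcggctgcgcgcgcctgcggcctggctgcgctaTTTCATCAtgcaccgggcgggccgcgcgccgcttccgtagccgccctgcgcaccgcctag
Iars: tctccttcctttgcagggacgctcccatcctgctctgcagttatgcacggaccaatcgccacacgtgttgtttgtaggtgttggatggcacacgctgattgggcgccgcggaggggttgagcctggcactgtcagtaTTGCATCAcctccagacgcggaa
Tars: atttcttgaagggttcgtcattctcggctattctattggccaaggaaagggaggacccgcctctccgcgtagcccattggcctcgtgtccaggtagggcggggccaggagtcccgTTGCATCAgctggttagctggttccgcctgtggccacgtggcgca
Yars: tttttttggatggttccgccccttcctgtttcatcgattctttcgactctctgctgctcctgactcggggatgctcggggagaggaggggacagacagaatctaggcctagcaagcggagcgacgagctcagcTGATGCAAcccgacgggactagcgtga
Asns: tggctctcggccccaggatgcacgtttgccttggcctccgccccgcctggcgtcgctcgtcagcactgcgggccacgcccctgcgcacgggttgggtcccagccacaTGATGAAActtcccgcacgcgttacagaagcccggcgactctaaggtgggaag
The element began at -112 and 10 in Aars, -30 in Gars, 8 in Iars, -15 in Tars, 4 in Yars and -23 in Asns, counted from 1 at the first base after the start and -1 before it. Only in Yars and Asns does it read TGATGNAA on the strand of the gene. A match of letters is a description of these windows and does not show that a factor binds there. The E-box CACGTG, the site of MYC with MAX, was in 4 of 13 cytosolic and 1 of 14 mitochondrial promoters, against 7.15% of all promoters, and in Aars, Iars and Tars it stood beside the composite element. The interferon-gamma activated site TTCNNNGAA was in 2 of 13 and 1 of 14 (8.30% of all), the interferon-stimulated response element in 1 of 13 and 0 of 14 (3.44%), and the NRF1 element in 0 of either set (0.971%).

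None of the 5 synthetases printed above was called by edgeR in the test reported for any of the 5 comparisons. Limma voom called Gars after E. coli in juvenile mice (log2 0.28, adjusted p = 0.0319) and Tars between juvenile and neonatal E. coli libraries, and edgeR called Tars there when juvenile E. coli library 3 was left out. Of 24 tested ATF4 target genes outside the synthetases, 7 rose and 1 fell after E. coli in juvenile mice, where 15.4% of all tested genes rose and 9.42% fell, and their median log2 fold change was 0.32. Asns had 10.8, 8.29 and 5.97 CPM in juvenile E. coli libraries and 2.02, 2.80 and 3.19 CPM in juvenile PBS libraries, a log2 fold change of 1.65 ± 0.31 (edgeR adjusted p = 0.00126). The transcription factors Jdp2 and Cebpb rose 4.30-fold and 2.90-fold (edgeR adjusted p = 0.000652 and 0.000787). Slc3a2, the shared chain of the large neutral amino acid transporters, had 89.4 ± 1.89 CPM in juvenile E. coli and 60.8 ± 8.46 CPM in juvenile PBS libraries (SD, n = 3 each, edgeR adjusted p = 0.00171). In neonates 0 of the 24 were called in edgeR (3 at an unadjusted p under 0.05), and 0 differed between the responses (6 at an unadjusted p under 0.05).

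Atf4 itself had 118 ± 12.4 CPM in juvenile E. coli and 104 ± 17.5 CPM in juvenile PBS libraries, which overlapped (log2 0.18 ± 0.12, edgeR adjusted p = 0.288). ATF4 is controlled largely through its translation, which these counts do not measure. Among 14 regulators of the integrated stress response, Eif2ak2, the kinase PKR, rose in juvenile mice (2.16-fold, edgeR adjusted p = 6.41e-05), and 13 were not called. Ddit3, the factor CHOP, was not called in juvenile mice (1.05-fold, adjusted p = 0.777) and rose in neonates (1.65-fold, edgeR adjusted p = 0.0378). Ddit3 overlaps Mars by 68 bases on the opposite strand. Trib3, another target, was not called at either age (edgeR adjusted p = 0.412 in juvenile and 0.872 in neonatal mice).

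No scaffold, amidotransferase or elongation factor gene was called higher in juvenile mice. None of the scaffold genes Aimp1, Aimp2 and Eef1e1 was called in juvenile mice in edgeR (0 also at an unadjusted p under 0.05), with log2 fold changes of -0.05, -0.30 and -0.35. Qrsl1, a subunit of the amidotransferase that makes mitochondrial glutaminyl-tRNA, was at -0.01. All 5 genes listed as cytosolic elongation factors or their subunits (Eef1a1, Eef1b2, Eef1d, Eef1g and Eef2) fell in juvenile mice. Eef1b2 had 917 ± 62.7 CPM in juvenile E. coli and 1432 ± 353 CPM in juvenile PBS libraries (log2 -0.64 ± 0.13, edgeR adjusted p = 0.00272), and Eef1a1 was at -0.37 ± 0.10 (adjusted p = 0.0125). The 4 mitochondrial elongation factors were not called in juvenile mice (0 at an unadjusted p under 0.05), with a median of -0.16. Of 17 genes of the MYC list 3 rose and 2 fell, shares near those of all tested genes (15.4% and 9.42%). Myc had 162 ± 30.9 CPM in juvenile E. coli and 93.7 ± 8.65 CPM in juvenile PBS libraries (edgeR adjusted p = 0.000245), and 1.64-fold more in neonatal E. coli than in neonatal PBS libraries (adjusted p = 0.00705).

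**Figure D4:**
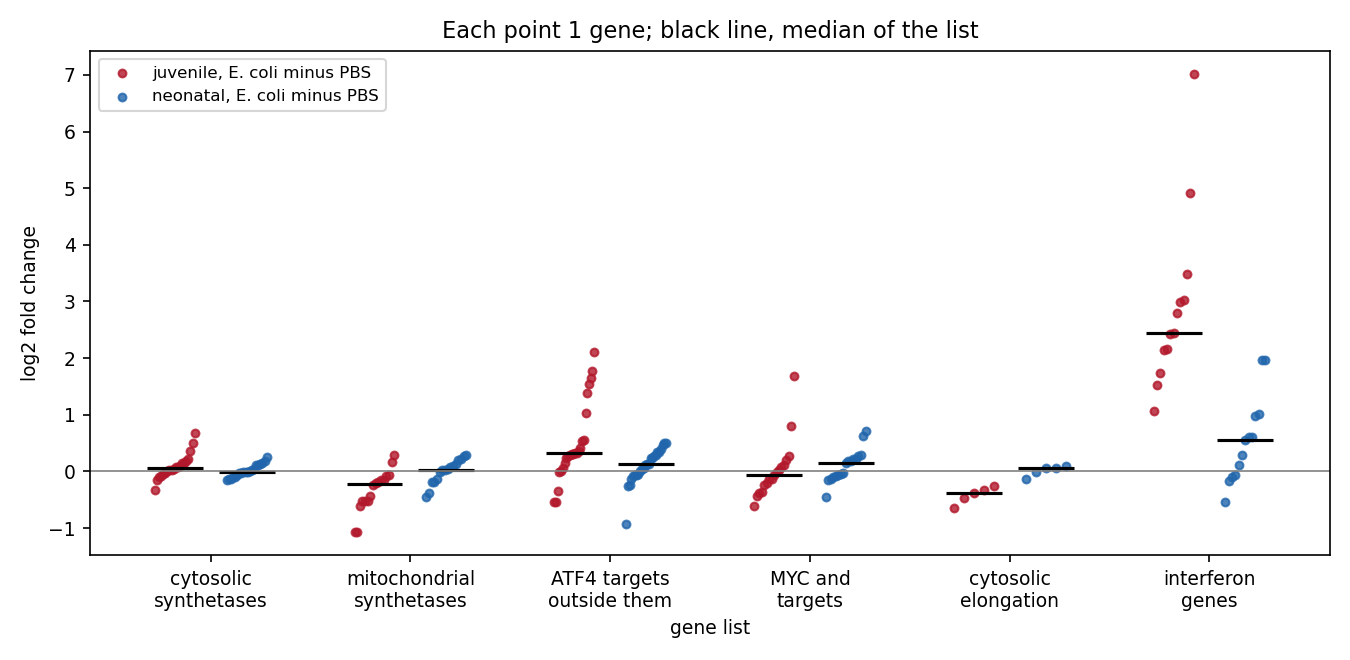
Log2 fold change of E. coli minus PBS for each tested gene of 6 lists in juvenile (red) and neonatal (blue) mice, with the median of a list as a black line. Synthetase medians lie near 0 except the mitochondrial genes in juvenile mice (-0.23), while the interferon genes have a juvenile median of 2.45.

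Wars stood beside a wide interferon response and other shifts in the juvenile libraries. All 13 tested interferon genes rose, with a median log2 fold change of 2.45 (edgeR, n = 3 libraries each), where 15.4% of all tested genes rose. In neonates 1 of the 13 rose, where 1.05% of all tested genes did. The summed interferon genes had 2214 to 3563 CPM in juvenile E. coli libraries and 972 to 1063 CPM in juvenile PBS libraries. Of 13 proliferation genes 12 rose in juvenile mice, with sums of 3810 to 5724 CPM in juvenile E. coli and 1759 to 3063 CPM in juvenile PBS libraries.

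Markers of other cells also moved in juvenile mice, where 15.4% of all tested genes rose and 9.42% fell after E. coli. Of 11 tested monocyte and macrophage genes 8 rose and 1 fell in juvenile mice, with sums of 805 to 1160 CPM in juvenile E. coli and 324 to 502 CPM in juvenile PBS libraries. Of 10 dendritic cell and MHC class II genes 7 rose, with sums of 484 to 589 and 219 to 336 CPM in those groups. Neutrophil genes summed to 6.10 to 17.5 CPM in juvenile E. coli and 0.165 to 1.15 CPM in juvenile PBS libraries, with Elane at 0 in all 12 libraries, and 5 of 9 T cell genes fell. Of 5 tested endothelial genes 3 rose and 1 fell, and of 6 tested lung epithelial genes 2 rose and 0 fell. In neonatal mice all 3 tested neutrophil genes also rose after E. coli, where 1.05% of all tested genes did. Their list summed to 8.04, 48.9 and 14.4 CPM in neonatal E. coli and 0.278 to 0.653 CPM in neonatal PBS libraries. Of 11 tested monocyte and macrophage genes 1 rose there, and 0 of the 10 dendritic cell and MHC class II genes did. The part of these shifts in the synthetase values was not tested. In bulk libraries, fewer cells of a type and less RNA per cell cannot be told apart.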

How the data were processed

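RNA of 12 libraries was analysed. Per the labels, cDNA was made with the Nugen Ovation kit, amplified by PCR and sequenced as paired ends on an Illumina HiSeq. CASAVA 1.8.4 and STAR (no version named) and the builds GRCm38 and mm10 are named in the submitters' processing notes. Per gene symbol, the deposited table gives counts, whole and not normalized, from SeqMonk per the name of the deposited table, with no version, annotation or strand setting stated there. Columns left unused numbered 0.

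The low-count filter was filterByExpr of edgeR (count 10, total 15), and it left 11062 of 19434 genes and 99.9% of counts. Tests used the quasi-likelihood F of edgeR 4.0.16 under R 4.3.3, with a mean per group fitted to all 12 libraries, TMM scaling, no covariate, Benjamini-Hochberg over all tested genes and a threshold of 0.05. CPM were computed from the counts with TMM-scaled totals, as mean ± SD, and log2 fold changes are ± SE. P-values measure the spread between pools. No libraries of a group agreed within sampling noise (chi-square over degrees of freedom 3.88 to 19.6).

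Members, gene lists and tests were chosen with earlier results of these data known. Any member may be named. Values in every library are given for up to 6 cytosolic and 3 mitochondrial called members of smallest p in a comparison and for Wars, Eprs, Aars, Gars and Lars2, and members at the ends of a comparison are named. Other lists are named by up to 4 members of smallest p and a short set that includes Atf4, Ddit3, Asns, Trib3, Myc, Qrsl1 and the scaffold genes, and 1 gene of that set is not reported here. Coordinates and exon lengths are from GENCODE M21 (GRCm38). Shared sequence was sought with blastn on its transcripts. Alternatives were DESeq2 1.42.0, scaling by RLE or by the upper quartile, limma 3.58.1 voom with sample weights, robust edgeR, the table unfiltered, a stricter filter (a group with 10 counts or more in each library), a fit of the compared groups alone, replicate number as a block, each library left out, and neonatal PBS library 1 and juvenile PBS library 2 left out together. Methylation was not analysed here.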

Additional observations from a re-analysis of the deposited data

Results flagged for a closer look

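The test of the difference between the juvenile and the neonatal response to E. coli called a pair of synthetases, and both calls were near the threshold. Wars had a difference of 0.78 ± 0.20 on the log2 scale (SE, edgeR adjusted p = 0.0287), with a log2 fold change of 0.69 in juvenile and -0.09 in neonatal mice. All 3 juvenile E. coli libraries were above all 3 juvenile PBS libraries, and the neonatal groups overlapped. Lars2 had a difference of -1.08 ± 0.30 (edgeR adjusted p = 0.0441), with a log2 fold change of -1.08 in juvenile and 0.00 in neonatal mice. All 3 juvenile E. coli libraries were below all 3 juvenile PBS libraries, which themselves ran from 2123 to 4491 CPM. The Wars call was lost in 9 of 21 alternative settings. The Lars2 call was lost in 12 of 21, among them DESeq2 and robust edgeR. Lars2 counts may include reads of ribosomal RNA origin, as stated above, and their part was not tested.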

How the results depend on the processing

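No called synthetase changed sign under any alternative, with 22 settings for each comparison and 21 for the difference of responses, where the fit cannot be cut to the groups compared. Some values that were not called crossed 0, such as Gars in the juvenile response (lowest -0.02) and Lars2 between PBS groups (highest 0.07). For E. coli against PBS in juvenile mice, limma voom called 6 cytosolic genes and 4480 genes in all, and upper-quartile scaling 5 mitochondrial genes. Under that scaling the share of called genes that rose was 50.9%, against 62.1% in the test reported, and the cytosolic median was 0.00 (below 0), with all genes shifted by -0.06. For the difference of responses and for juvenile against neonatal E. coli libraries that share was 62.7% and 55.3%, against 72.2% and 63.8%. For neonatal E. coli against PBS the whole table had 238 calls in DESeq2, 312 in voom and 320 with only the groups compared, against 132. For the difference of responses voom called 2 cytosolic, 3 mitochondrial and 2300 genes in all, and DESeq2 and robust edgeR 0 mitochondrial genes. For juvenile against neonatal PBS voom called 1 cytosolic gene and 927 in all, DESeq2 729 and only the groups compared 280, against 451. For juvenile against neonatal E. coli voom called 4 cytosolic, 3 mitochondrial and 3810 genes, and upper-quartile scaling 1 cytosolic gene. The cause of these differences between settings was not tested. Between samples of the same replicate number, 18 correlations ran from -0.19 to 0.209, of which 3 were over 0.1. The highest were between E. coli and PBS library 3 of the same age (0.201 juvenile, 0.209 neonatal). These correlations come from deviations around means of 3 libraries and cannot decide whether replicate numbers pair the samples. With a replicate block the difference of responses had 0 cytosolic calls, and juvenile against neonatal E. coli had 1, with the Wars call lost in both (adjusted p = 0.0506 and 0.0582), and Nars2 lost its juvenile call (0.0547). Single libraries left out gave 1 to 3 cytosolic, 1 to 4 mitochondrial and 1656 to 3204 calls in all for the juvenile response, 0, 0 and 55 to 238 for the neonatal response, 0 to 2, 0 to 2 and 368 to 1553 for their difference, 0, 0 and 177 to 671 between PBS groups, and 0 to 3, 1 to 2 and 1108 to 2637 between E. coli groups. Depth limits Pars2 and Aars2 most, with 37 counts or fewer in every library.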
